A study of Mus musculus with 12 samples.

Results

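The genes described here are 10 imprinted genes of mouse liver: Meg3, Rian and Mirg, which are 3 neighbouring non-coding RNAs of the Dlk1-Dio3 region, and H19, Airn, Igf2r, Cdkn1c, Grb10, Peg3 and Mest from other imprinted regions. They are the rows of the deposited table whose Ensembl identifier carries one of these symbols, and all 10 were found among 35275 rows. Meg3 and Rian were chosen on measured values, because earlier results of the same libraries had listed them as genes whose response to diet differed between genotypes. Their differences between groups, and those of their neighbour Mirg, are therefore given as a description without a test. The other members and the gene lists were also chosen with earlier results of these data known, which their p values do not take into account.

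The data are RNA-seq of total RNA from whole liver of 12 male mice, 3 per group. Wild type (WT) and Pctp-/- animals each received chow or the MCD diet, which gives 4 groups by genotype and diet. Pctp-/- is a knockout of PC-TP, a protein that carries phosphatidylcholine, in the whole body and not in the liver alone. The MCD diet contains neither methionine, the source of the methyl groups used on DNA, nor choline, and induces fat accumulation and injury in the liver. No other allele or agent is named in the labels, and the age of these mice and their time on the MCD diet are not stated for this experiment in the sources used here.

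At an imprinted gene, the copy inherited from one parent is used and the other is kept silent, under the control of DNA methylation laid down in the germ line. In the Dlk1-Dio3 region, Meg3, Rian and Mirg are transcribed one after the other in the same direction from the maternal chromosome, and carry small RNAs (microRNAs and small nucleolar RNAs) within them, while Dlk1, Rtl1 and Dio3 are expressed from the paternal chromosome. H19 and Airn are likewise non-coding RNAs that lie beside imprinted growth genes. Many of these genes are abundant in fetal liver and are turned down after birth.

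The values are FPKM, the fragments assigned to a gene scaled by transcript length and sequencing depth, so that levels of different genes can be set side by side. Each chow library held between 30486576 and 55179468 uniquely mapped reads, and each MCD library between 33463498 and 46246856. Their share of all reads lay between 77.59 and 79.41% for chow libraries and between 85.66 and 87.55% for MCD libraries. The labels name no sequencing batch, so an effect of diet and of whatever set these shares apart cannot be told apart, while the genotypes overlapped in them within a diet. Pctp itself was 1.21 to 2.65 FPKM in WT and 0.330 to 0.566 in Pctp-/- mice on chow, and 3.61 to 7.90 and 0.156 to 0.329 on MCD. The hepatocyte markers Alb (26290 to 61588 FPKM) and Ttr (4091 to 5651) were high in every library. The WT MCD library of replicate 1 stood apart in several measures, described with the genes it touches.

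Meg3 (ENSMUSG00000021268) lies on the plus strand of chromosome 12 from 109541001 to 109571726 in GRCm38, Rian (ENSMUSG00000097451) from 109603940 to 109661716, and Mirg (ENSMUSG00000097391) from 109729764 to 109749460. Gaps of 32.2 kb and 68.0 kb separate them, and the whole stretch from the start of Meg3 to the end of Mirg spans 208 kb. The sequences around the RefSeq start sites of these 3 transcripts are shown because their levels moved together, and that of Peg3 because it holds a motif in common with Meg3 while its level moved otherwise. Each window runs from 250 bases before the start to 50 bases after it, 5′ to 3′ on the gene's strand (RefSeq, GRCm38.p6), with matches to 2 motifs in capitals. TGCCGC is the core bound by ZFP57, a protein that keeps methylation at imprinted regions, and TGACGTCA is the cyclic AMP response element. Both were searched on both strands, and TGCCGC on the other strand reads GCGGCA.
Meg3, chr12:109540746-109541045, plus strand: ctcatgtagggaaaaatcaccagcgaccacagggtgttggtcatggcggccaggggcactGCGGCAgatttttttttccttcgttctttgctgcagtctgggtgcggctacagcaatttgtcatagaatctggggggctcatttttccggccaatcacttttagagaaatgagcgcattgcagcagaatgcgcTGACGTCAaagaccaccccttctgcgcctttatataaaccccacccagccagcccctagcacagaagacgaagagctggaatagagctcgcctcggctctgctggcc
Rian, chr12:109603695-109603994, plus strand: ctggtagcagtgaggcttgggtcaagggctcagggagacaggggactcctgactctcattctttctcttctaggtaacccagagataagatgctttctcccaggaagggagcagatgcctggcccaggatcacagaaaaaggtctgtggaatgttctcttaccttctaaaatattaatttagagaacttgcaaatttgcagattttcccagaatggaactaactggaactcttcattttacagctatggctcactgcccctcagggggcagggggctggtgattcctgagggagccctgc
Mirg, chr12:109734731-109735030, plus strand: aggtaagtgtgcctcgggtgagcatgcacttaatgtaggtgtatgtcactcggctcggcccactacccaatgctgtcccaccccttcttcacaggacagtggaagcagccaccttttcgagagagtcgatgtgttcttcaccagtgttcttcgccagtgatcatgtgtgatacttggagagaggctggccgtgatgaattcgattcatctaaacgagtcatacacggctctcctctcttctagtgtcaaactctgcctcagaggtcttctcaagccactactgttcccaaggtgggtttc
Peg3, chr7:6730370-6730669, minus strand: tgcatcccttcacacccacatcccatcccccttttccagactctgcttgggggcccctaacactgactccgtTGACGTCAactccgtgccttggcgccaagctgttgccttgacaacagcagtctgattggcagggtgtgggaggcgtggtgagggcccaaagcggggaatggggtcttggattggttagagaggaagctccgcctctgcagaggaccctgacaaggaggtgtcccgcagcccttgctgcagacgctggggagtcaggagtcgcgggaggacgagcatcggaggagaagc

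The Meg3 window held 1 TGCCGC, 1 TGACGTCA and 13 CG dinucleotides, against a median of 7 CG in all 32851 RefSeq windows of the mouse. TGCCGC was found in 11.6% and TGACGTCA in 1.79% of all windows. The Rian window held neither motif and 0 CG, and that of Mirg neither motif and 10 CG. Peg3 had TGACGTCA and 13 CG. The RefSeq start of Mirg lies within the annotated gene, and its window includes the microRNAs miR-668-5p, miR-668-3p and miR-485-3p. Of the 10 genes, 8 had a window, and of these 2 held TGCCGC (Meg3 and Grb10) and 2 held TGACGTCA (Meg3 and Peg3). Meg3 and Grb10 had 2 RefSeq starts each and Mest 3, of which only the most 5′ window was searched. These matches describe the letters only.

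The 3 transcripts are hosts of microRNAs, and Rian also of small nucleolar RNAs. RefSeq places 60 microRNA hairpins between the start of Meg3 and the end of Mirg, of which 2 hairpins lie within Meg3, 3 within Rian and 14 within Mirg. A few are shown for each host with their seed (bases 2 to 8, the part that pairs with target mRNAs) in capitals. They are miR-770-5p of Meg3, miR-370-3p of Rian, and miR-485-3p, miR-410-3p, miR-453 and miR-496a-5p of Mirg. The last pair has the only seed that 2 mature microRNAs of these transcripts had in common.
miR-770-5p: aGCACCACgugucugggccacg
miR-370-3p: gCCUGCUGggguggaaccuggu
miR-485-3p: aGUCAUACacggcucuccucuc
miR-410-3p: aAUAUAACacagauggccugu
miR-453: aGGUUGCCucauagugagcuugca
miR-496a-5p: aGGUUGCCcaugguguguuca

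The mature microRNAs were not measured in these libraries, and the levels that follow are those of the long host transcripts.

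Meg3, Rian and Mirg were low in chow-fed liver of either genotype, higher in WT liver on MCD, and highest in Pctp-/- liver on MCD. Meg3 was at 0.428, 0.498 and 0.284 FPKM in the 3 WT mice on chow and at 0.116, 0.414 and 0.337 in the 3 Pctp-/- mice on chow. On MCD it was at 1.04, 1.03 and 0.643 FPKM in WT mice and at 3.57, 5.06 and 3.34 in Pctp-/- mice. All 3 Pctp-/- mice on MCD were thus above every other library, every WT mouse on MCD was above the chow libraries, and the chow groups overlapped. The mean FPKM was 4.41 times as high in Pctp-/- as in WT mice on MCD, and the lowest Pctp-/- library was 3.23 times the highest WT library. On chow the same ratio of means was 0.717.

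Rian, the host of a family of small nucleolar RNAs, followed the same order. It was at 0.161, 0.166 and 0.231 FPKM in WT and 0.0922, 0.198 and 0.103 in Pctp-/- mice on chow. On MCD, WT mice had 1.30, 1.07 and 0.767 FPKM and Pctp-/- mice 4.36, 5.35 and 3.17. Again the Pctp-/- MCD libraries were the highest, with no overlap between the MCD groups and overlap between the chow groups. The ratio of mean FPKM in Pctp-/- to WT mice was 4.11 on MCD and 0.703 on chow.

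Mirg, which carries the most microRNAs of the 3, was the least abundant of the 3. On MCD it was at 0.288, 0.199 and 0.247 FPKM in WT and 1.10, 1.06 and 0.721 in Pctp-/- mice, a ratio of means of 3.93 with no overlap. On chow it was between 0.0181 and 0.0990 FPKM, which corresponds to an estimated 2.23 to 19.9 fragments per library, so the level there was close to the limit of detection. These estimates of fragments use the annotated exon length and the number of uniquely mapped read pairs, and are approximate because the authors' own length and total are not given.

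**Figure D1:**
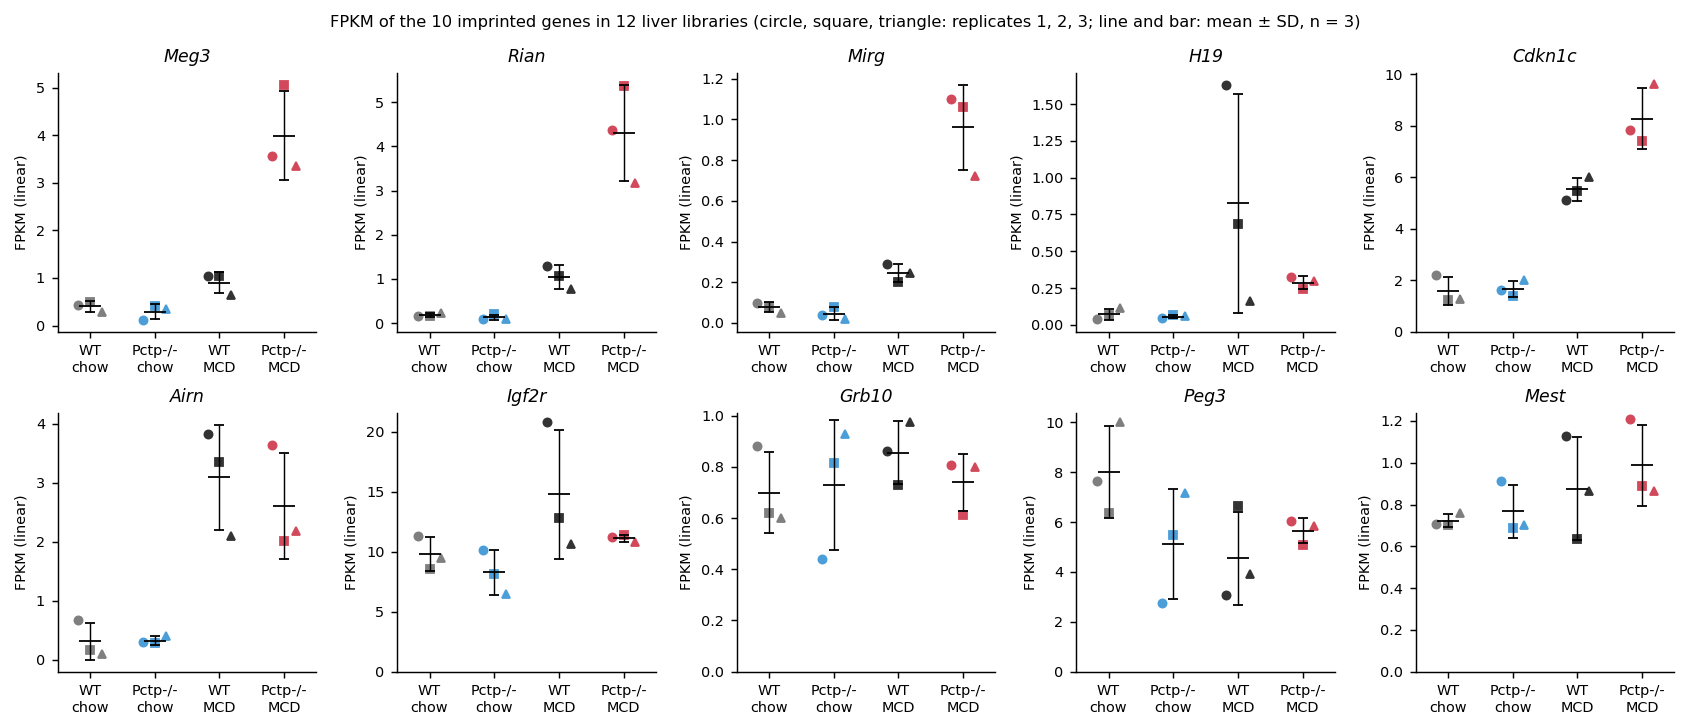
FPKM (linear axis) of the 10 imprinted genes in each of the 12 liver libraries, by group, with the mean and SD of 3 mice. Meg3, Rian and Mirg sat highest in the 3 Pctp-/- MCD libraries (3.34 to 5.06 FPKM for Meg3), Cdkn1c and Airn were higher on MCD in both genotypes, and Grb10 and Mest stayed between 0.442 and 1.21 FPKM in all groups.

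On the log2(FPKM + 1) scale of the fitted model, which compresses changes at such low levels, Meg3 was higher by 1.38 (standard error 0.15) and Rian by 1.36 (standard error 0.15) in Pctp-/- than in WT mice on MCD. On chow the differences were -0.13 for Meg3 and -0.07 for Rian. The MCD diet went with a difference of 0.44 for Meg3 and 0.78 for Rian in WT mice, and of 1.94 and 2.21 in Pctp-/- mice. The difference of these diet responses was 1.51 (standard error 0.22) for Meg3 and 1.43 (standard error 0.21) for Rian. With a pseudocount of 0.1 in place of 1, the differences between genotypes became 2.03 and 1.94 on MCD and -0.44 and -0.33 on chow. Those with diet became 0.99 and 1.98 in WT and 3.46 and 4.25 in Pctp-/- mice, and the differences of the responses 2.47 and 2.27. With a pseudocount of 1 and without any one library, the differences between genotypes on MCD stayed between 1.23 and 1.47 for Meg3 and between 1.22 and 1.52 for Rian.

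Of all 12466 genes tested, 0.0963% passed the test for a difference of diet responses (an adjusted p under 0.05 from limma), 0.818% passed for the genotypes on MCD and 0.136% for the genotypes on chow. As Meg3 and Rian were taken from that comparison, nothing is read from their place in it. Meg3, Rian and Airn entered the tested genes only through their levels on MCD, since their means on chow were under the filter of 0.5 FPKM, and Mirg and H19 did not pass it.

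In whole liver, more cells that express a gene and more RNA per cell cannot be told apart. The summed FPKM of 6 hepatocyte markers was 52989 to 59707 in WT and 67186 to 73566 in Pctp-/- mice on MCD, without overlap, and was 39785 to 44411 and 42899 to 45131 on chow. That of 11 stellate cell and fibroblast markers was 44.3 to 88.3 and 38.2 to 49.4 on MCD. For 9 macrophage and leukocyte markers it was 91.1 to 144 in WT and 83.1 to 86.8 in Pctp-/- mice on MCD. Proliferation markers (6 genes) summed to 1.62 to 9.61 in WT and 1.40 to 1.73 in Pctp-/- mice on MCD. No marker of these 4 lists was at 0 in every library. Most of the hepatocyte sum was Alb, which was at 41402 to 46335 FPKM in WT and 54602 to 61588 in Pctp-/- mice on MCD. Apoa1 was at 5492 to 6681 and 5272 to 7649, and Ttr at 4101 to 5554 and 4869 to 5651. Cps1 was at 393 to 520 and 514 to 536, Tat at 446 to 754 and 246 to 567, and Hnf4a at 105 to 115 and 96.2 to 117. Of these markers Alb alone did not overlap between the genotypes, and the means of Apoa1, Tat and Hnf4a were lower in Pctp-/- mice. The median difference of the 6 markers was 0.06, beside -0.09 for all tested genes. Between genotypes on MCD, 0 of the 6 hepatocyte markers passed by limma. At an unadjusted limma p under 0.05 were 2 of them, beside 2026 of all 12466 tested genes. The part of these markers in the level of the Meg3 transcripts was not tested.

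The other genes between Dlk1 and Dio3 did not show this pattern at a level that could be measured. The annotation holds 118 genes in these 828 kb, 90 of them microRNA or small nucleolar RNA genes, and 9 had a row in the table, of which 0 were of those small RNA classes. Dlk1, a growth factor of fetal tissue, was at 0 in all chow libraries and at most 0.0296 FPKM on MCD. Rtl1, a retrotransposon-derived gene of the placenta, reached at most 0.0217 FPKM. Dio3, which inactivates thyroid hormone, went the other way, at 0.0736 to 0.150 FPKM in the chow libraries and 0 to 0.0262 in the MCD libraries, all close to 0. Gm26945, within Rian, reached 0.0684 FPKM and was above 0 on MCD alone, with means of 0.00870 in WT and 0.0405 in Pctp-/- mice. B830012L14Rik reached 0.0354 FPKM and was above 0 in Pctp-/- mice on MCD alone. The Dlk1 means on MCD were 0.00739 in WT and 0.0181 in Pctp-/- mice, so these genes were also higher in Pctp-/- mice on MCD, at levels near 0. Gm26906, antisense to the 3′ end of Meg3, was listed at 0 throughout. Meg3 and Gm26906 overlap over 1228 exon bases and the strand setting of the authors' counting is not given, so part of the Meg3 value could not be assigned by strand.

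**Figure D2:**
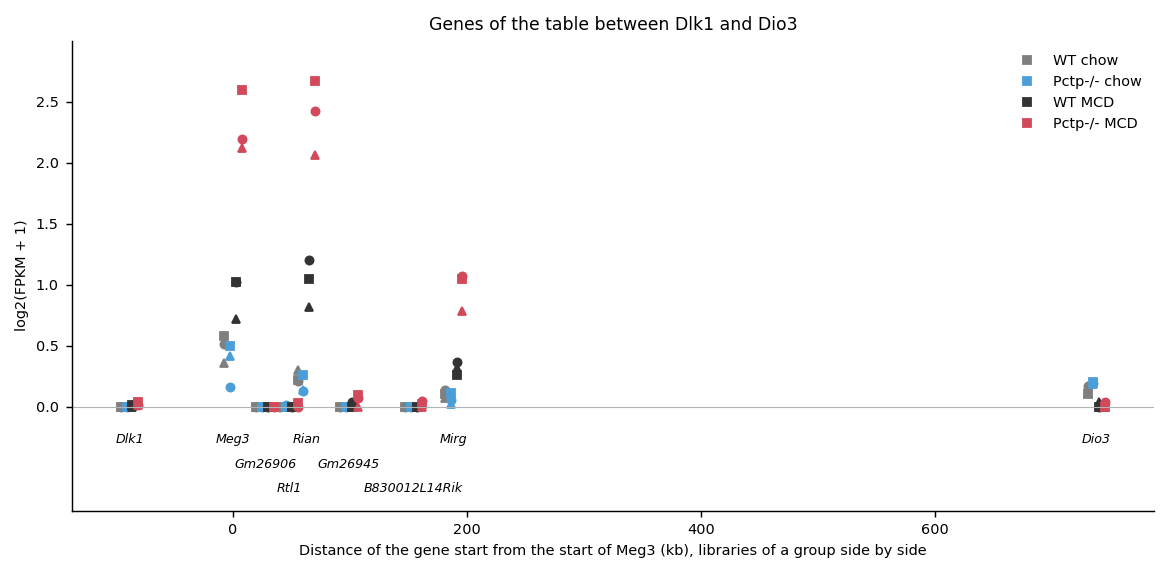
log2(FPKM + 1) of the 9 genes of the table between Dlk1 and Dio3, each placed at the distance of its start from that of Meg3 (kb). Points are libraries, coloured by group and set side by side. The 3 Pctp-/- MCD libraries rise above the others at Meg3, Rian and Mirg, and the protein-coding Dlk1, Rtl1 and Dio3 stay near 0.

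Within the cluster, Rian and Meg3 kept a narrow ratio on MCD, and Mirg a wider one. The ratio of Rian to Meg3 FPKM was 1.04 to 1.25 in WT and 0.949 to 1.22 in Pctp-/- mice on MCD, with overlap between the genotypes. On chow it was 0.304 to 0.815 in all 6 libraries, below every MCD library. The ratio of Mirg to Meg3 overlapped among all groups, at 0.0536 to 0.336 on chow and 0.192 to 0.385 on MCD. Across the 12 libraries, Pearson's r was 0.98 for Meg3 with each of Rian and Mirg and for Rian with Mirg, a description of points that share 4 groups and 2 diets. Meg3 and Rian were both chosen for their pattern over these groups, so the r between them is no separate result. Meg3 had an r of 0.84 with Cdkn1c, 0.68 with Airn, 0.29 with H19 and -0.03 with Peg3.

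**Figure D3:**
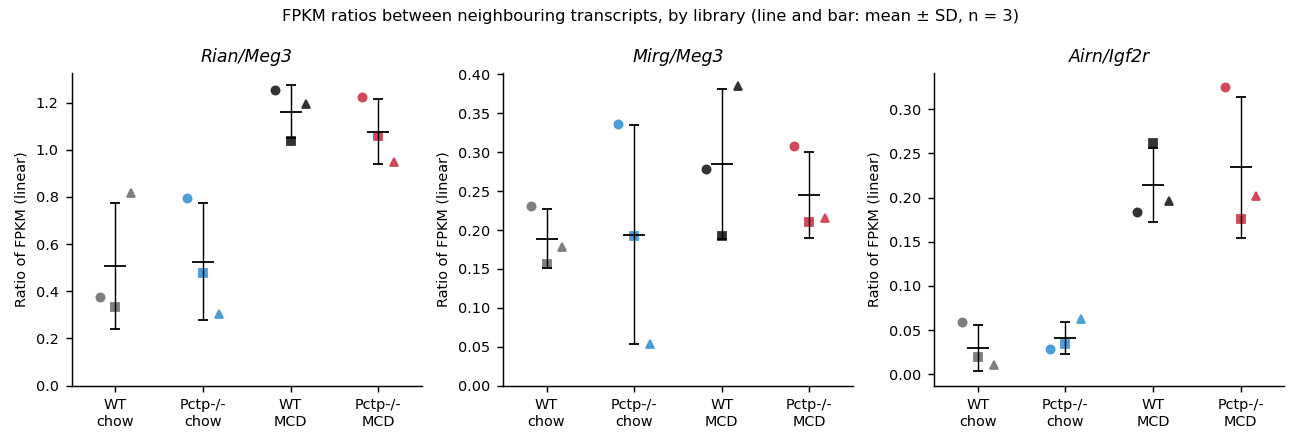
Ratios of FPKM between neighbouring transcripts (linear axis) by library, with the mean and SD of 3 mice in each group. Rian/Meg3 was below 0.815 in the chow libraries and above 0.949 on MCD, Mirg/Meg3 overlapped, and Airn/Igf2r was at most 0.0621 on chow and at least 0.176 on MCD.

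H19 (chromosome 7, 142575529 to 142578143, minus strand) is the maternally expressed RNA beside Igf2, is abundant in fetal liver, and hosts miR-675. It was at 0.0368 to 0.113 FPKM in the 6 chow libraries, an estimated 2.40 to 5.04 fragments each. On MCD it was at 1.63, 0.687 and 0.161 FPKM in WT and 0.326, 0.241 and 0.295 in Pctp-/- mice. All MCD libraries exceeded all chow libraries, the genotypes overlapped on both diets, and the WT mice on MCD were spread over a wide range. H19 was below the filter and was not tested.

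The highest H19 value came from the library of WT MCD replicate 1, in which other genes stood out as well. This library had the highest FPKM of the 12 for H19, for Igf2r (20.8, others at most 12.8), for the fetal liver protein Afp (19.9, others at most 8.47) and for Phlda2 (2.56, others at most 1.13), an imprinted growth gene. Its summed FPKM of proliferation markers was 9.61, against 1.40 to 2.04 in the other MCD libraries, and that of stellate cell and fibroblast markers was 88.3, against 38.2 to 49.4. For Meg3, Rian and Mirg it ranked 4 of 12, below every Pctp-/- MCD library and above all the others. Among the WT MCD libraries it was thus the highest for each, though by little for Meg3 (1.035 FPKM, with replicate 2 at 1.034). The part of these cell markers in the H19 and Igf2r values was not tested.

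**Figure D4:**
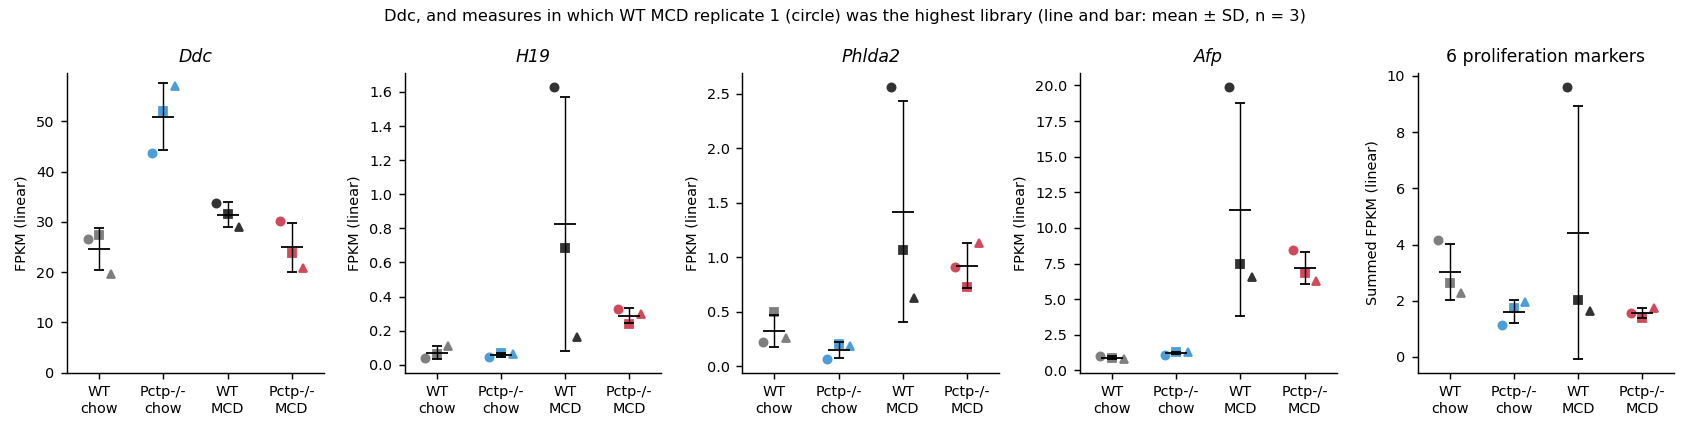
Ddc, H19, Phlda2 and Afp (FPKM) and the summed FPKM of 6 proliferation markers in each library, on linear axes with the mean and SD of 3 mice. WT MCD replicate 1 (circle) lies highest for H19, Phlda2, Afp and the proliferation markers, at 1.63, 2.56, 19.9 and 9.61, and Ddc is highest in the 3 Pctp-/- chow libraries.

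Airn is the paternal non-coding RNA that starts inside Igf2r and silences it on that chromosome, and Igf2r is the receptor that carries IGF2 and lysosomal enzymes to the lysosome. They lie on opposite strands of chromosome 17 (Airn 12741311 to 12860136, plus strand, and Igf2r 12682406 to 12769664, minus strand). Airn was higher on MCD in both genotypes. It was at 0.673, 0.163 and 0.0937 FPKM in WT and 0.289, 0.277 and 0.402 in Pctp-/- mice on chow, and at 3.82, 3.35 and 2.10 and 3.64, 2.00 and 2.18 on MCD. No MCD library overlapped a chow library, and the genotypes overlapped on both diets. The difference with diet was 1.65 (standard error 0.21) in WT and 1.42 (standard error 0.21) in Pctp-/- mice on the log2(FPKM + 1) scale, given without a test because Airn passed the filter only through its MCD levels. In WT mice, the median of all tested genes was itself shifted by 0.11 on MCD, and by -0.0013 under median-of-ratios scaling. Relative to that median, the Airn difference in WT mice was 1.54. Between genotypes Airn differed by 0.04 on chow (limma adjusted p = 0.994) and -0.18 on MCD (limma adjusted p = 0.714).

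Igf2r was at 11.3, 8.56 and 9.51 FPKM in WT and 10.2, 8.17 and 6.47 in Pctp-/- mice on chow, and at 20.8, 12.8 and 10.7 and 11.2, 11.4 and 10.8 on MCD. It did not pass the test for diet in WT mice (0.50, standard error 0.21, limma adjusted p = 0.053), where the groups overlapped, or in Pctp-/- mice (0.41, limma adjusted p = 0.12), where they did not. Without the library of WT MCD replicate 1 the WT difference was 0.24, with a limma adjusted p of 0.24, and the genotype difference on MCD moved from -0.33 to -0.07. The Airn to Igf2r FPKM ratio lay between 0.00986 and 0.0621 in the chow libraries and between 0.176 and 0.325 in the MCD libraries. The exons of Airn and Igf2r share 0 bases, but Airn crosses Igf2r introns, so reads of unspliced Igf2r RNA could not be told apart from Airn without strand.

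Cdkn1c (chromosome 7, 143458339 to 143461050, minus strand) encodes p57, a maternally expressed inhibitor of the cell cycle. It was at 2.20, 1.24 and 1.27 FPKM in WT and 1.62, 1.38 and 2.01 in Pctp-/- mice on chow. On MCD it was at 5.11, 5.48 and 6.01 FPKM in WT and 7.82, 7.41 and 9.61 in Pctp-/- mice. Every MCD library exceeded every chow library, and the Pctp-/- MCD libraries exceeded the WT ones. Cdkn1c rose on MCD by 1.37 in WT (standard error 0.15, limma adjusted p = 1.7e-05, and 1.26 relative to the median gene) and by 1.80 in Pctp-/- mice (standard error 0.15, limma adjusted p = 2.8e-06). The difference between genotypes on MCD, 0.50 (standard error 0.15), did not pass the test (limma adjusted p = 0.14), nor did the difference of the diet responses, 0.43 (standard error 0.22, limma adjusted p = 0.37). Cdkn1c shares 625 exon bases with the antisense Gm44732.

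Grb10 (chromosome 11, 11930508 to 12038683, minus strand), an adaptor that dampens insulin and growth factor receptors, and Mest (chromosome 6, 30723547 to 30748465, plus strand), a paternally expressed enzyme-like protein of growing tissue, stayed low and flat. Over the 12 libraries Grb10 ranged from 0.442 to 0.976 FPKM (median 0.804) and Mest from 0.635 to 1.21 (median 0.810). In the 5 comparisons their differences were at most 0.17 on the log2(FPKM + 1) scale, with limma adjusted p values from 0.285 to 0.996. Mest shares 912 exon bases with Copg2 on the other strand. Grb10 lies on the same chromosome as Pctp, 78.1 Mb away.

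Peg3 (chromosome 7, 6703892 to 6730431, minus strand), a paternally expressed zinc finger protein, varied widely within most groups. It was at 7.63, 6.36 and 10.0 FPKM in WT and 2.77, 5.48 and 7.15 in Pctp-/- mice on chow, and at 3.08, 6.64 and 3.90 and 6.05, 5.10 and 5.83 on MCD. All 4 groups overlapped with each other except WT chow with Pctp-/- MCD. Peg3 fell by 0.73 on MCD in WT mice (standard error 0.28, limma adjusted p = 0.039), with 1 WT MCD mouse above the lowest WT chow mouse, and this call was lost without WT chow replicate 1 or 3, WT MCD replicate 1 or 3, or Pctp-/- MCD replicate 3 (limma adjusted p = 0.050 to 0.15). Its difference was 0.19 in Pctp-/- mice (limma adjusted p = 0.60), and the difference of the responses was 0.92 (standard error 0.39, limma adjusted p = 0.29). On chow it differed by -0.60 between genotypes (limma adjusted p = 0.71).

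Leaving out Airn, 5 members outside the Meg3 cluster were tested. For genotype on chow, genotype on MCD and the difference of responses 0 passed by limma, with 1 at an unadjusted p under 0.05 in each. In these comparisons 870, 2026 and 1884 of all 12466 tested genes were under it. For diet, 2 passed in WT mice (Cdkn1c and Peg3), where 57% of all tested genes passed (34.5% higher and 22.5% lower on MCD), and 1 in Pctp-/- mice (Cdkn1c), where 50.3% passed (26% higher and 24.4% lower). These shares are given beside the background and nothing is read from them.

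**Figure D5:**
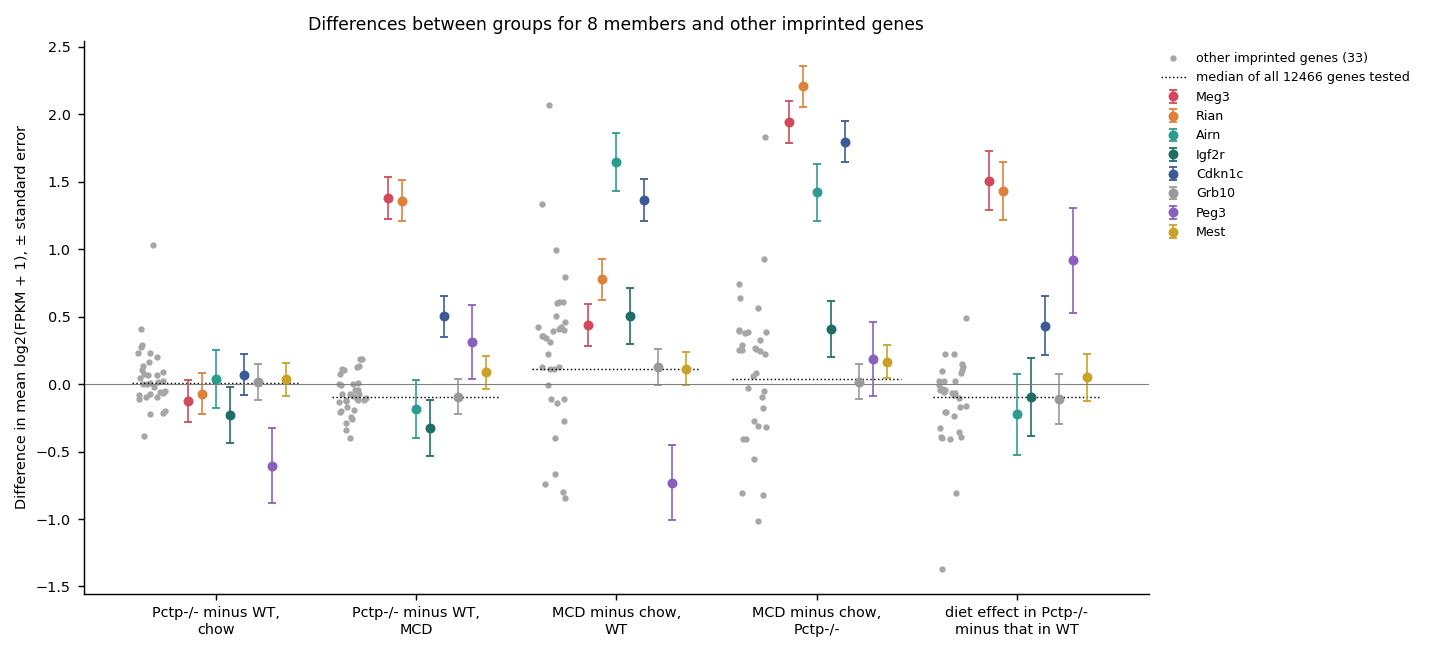
Difference in mean log2(FPKM + 1) with its standard error for the 8 members in the fit, in the 5 comparisons, beside 33 other imprinted genes (grey) and the median of all tested genes (dotted). Meg3 and Rian stand at 1.38 and 1.36 for the genotypes on MCD and Cdkn1c at 0.50. As Meg3 and Rian were chosen on their values in these libraries, nothing is read from their distance to the other genes. Between the genotypes, the median of the other imprinted genes is 0.02 on chow and -0.09 on MCD, with Ddc on chow furthest from it at 1.03. Others lie off the median as well. Tssc4, for example, had mean FPKM of 11.4 in WT and 15.6 in Pctp-/- mice on chow, and 15.3 and 11.4 on MCD.

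Other imprinted genes were taken from a list of 70, of which 65 were in the table and 33 passed the filter. Between genotypes on MCD, 0 of the 33 passed by limma. At an unadjusted limma p under 0.05 were 3 of them, beside 2026 of all 12466 tested genes. The median difference of the 33 was -0.09 beside -0.09 for all tested genes. On chow 1 passed (median 0.02, all genes 0.01), and 1 passed for the difference of responses (median -0.06, all genes -0.10). Both of these calls were Ddc.

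Ddc, the decarboxylase that makes dopamine and serotonin, is imprinted in the heart and is the neighbour of Grb10, with 32.4 kb between them. It was at 26.6, 27.3 and 19.7 FPKM in WT and 43.7, 52.0 and 57.1 in Pctp-/- mice on chow, without overlap, and was already known to be called in these libraries. On MCD it was at 33.8, 31.6 and 28.9 FPKM in WT and 30.2, 23.7 and 20.8 in Pctp-/- mice, which overlapped. It was higher by 1.03 in Pctp-/- mice on chow (standard error 0.16, limma adjusted p = 0.027) and fell by 1.01 on MCD in Pctp-/- mice (limma adjusted p = 2.2e-04). The difference of responses was -1.37 (standard error 0.22, limma adjusted p = 0.049). This call was lost in 8 of the 12 fits that each left out 1 library and in 4 of 7 other alternatives (limma adjusted p up to 0.14). The chow call was lost when only the 6 chow libraries were fitted (limma adjusted p = 0.18) and with no filter on low values (limma adjusted p = 0.096). It was also lost without WT chow or Pctp-/- chow replicate 2 or 3, WT MCD replicate 2 or Pctp-/- MCD replicate 2 (limma adjusted p = 0.052 to 0.096). Grb10 next to it differed by 0.02 on chow (limma adjusted p = 0.996).

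On MCD, 20 of the 33 other imprinted genes changed in WT mice (15 higher and 5 lower) and 16 in Pctp-/- mice (11 higher and 5 lower), beside the 57% and 50.3% of all genes given above. Their median difference was 0.34 in WT and 0.25 in Pctp-/- mice, against 0.11 and 0.04 for all genes. Under median-of-ratios scaling the split was 10 higher and 6 lower in each genotype, and in Pctp-/- mice it was 10 higher and 7 lower under quantile normalisation. Without WT MCD replicate 1, 12 were higher and 5 lower in WT mice. Of the 33 genes, 3 (Ano1, Phactr2 and Phlda2) passed the filter through 1 diet only, and without them 12 were higher and 5 lower in WT and 9 and 5 in Pctp-/- mice.

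The largest positive differences were of Dcn, Chrac1, Mcts2 and Phlda2 in both genotypes. Dcn, a matrix proteoglycan of stellate cells and fibroblasts that is imprinted in placenta, was at 23.0 to 36.9 FPKM in WT mice on chow and 114 to 155 on MCD. It rose by 2.07 in WT (1.96 relative to the median gene) and by 1.83 in Pctp-/- mice. The sum of 11 stellate cell and fibroblast markers in WT mice went from 14.6 to 30.4 on chow to 44.3 to 88.3 on MCD. Of these markers 6 passed by limma for diet in WT mice, all of them higher, with Lum rising most (2.63). Acta2 (-0.11) and Col1a1 (-0.17) differed the other way and did not pass. The part of these markers in the Dcn rise was not tested. Chrac1, a subunit of a chromatin remodelling complex, rose by 1.34 and 0.93. Mcts2 rose by 1.00 and 0.64. Phlda2 differed by 0.80 and 0.74, and by 0.48 in WT mice without WT MCD replicate 1, and is given without a test because it passed the filter only through its MCD levels. The largest falls in WT mice were of the transporter-like gene Slc22a18 (-0.84), the oxysterol-binding protein gene Osbpl5 (-0.80), Trappc9 (-0.74) and the amino acid transporter gene Slc38a4 (-0.66). In Pctp-/- mice the largest falls, apart from Ddc, were of Slc22a18 (-0.82), Trappc9 (-0.81) and Slc38a4 (-0.56), and H13 also fell (-0.40).

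Genes that maintain imprints or write and erase DNA methylation were read from a list of 17, of which 12 were tested. By limma 0 passed between genotypes on chow, 0 on MCD and 0 for the difference of responses. At an unadjusted limma p under 0.05 were 3, 0 and 1, beside 870, 2026 and 1884 of all 12466 tested genes. On MCD 6 changed in WT mice (2 higher and 4 lower) and 4 in Pctp-/- mice (1 higher and 3 lower), where 57% and 50.3% of all tested genes did, so nothing particular to the list is read from these counts. Trim28, the scaffold that ZFP57 recruits, was at 25.7 to 32.2 FPKM in WT mice on chow and 19.1 to 19.4 on MCD, and fell by 0.54 in WT and 0.66 in Pctp-/- mice. Mbd3, a subunit of the NuRD complex, fell by 0.62 and 1.00. Tet2 (-0.60) and Tet3 (-0.58), which oxidise methylcytosine, fell in WT mice. Dnmt3a, a de novo DNA methyltransferase, rose by 0.45 and 0.75, and Ctcf, the insulator protein at H19, by 0.26 in WT mice. The Ctcf, Dnmt3a and Tet2 calls in WT mice were lost in several alternatives. Without WT MCD replicate 1, for example, Ctcf and Dnmt3a differed by 0.21 and 0.23 (limma adjusted p = 0.12 for each). Dnmt3b was at 0.605 to 0.983 FPKM in WT and 1.52 to 1.87 in Pctp-/- mice on chow, without overlap (0.57, limma adjusted p = 0.22), and fell by 0.55 on MCD in Pctp-/- mice.

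Of 10 genes of fetal liver and its postnatal repressors, 5 were tested. With diet, 3 passed in WT and 4 in Pctp-/- mice, beside 57% and 50.3% of all genes, and Gpc3 passed in neither. By limma 0 passed for genotype on either diet or for the difference of responses. At an unadjusted limma p under 0.05 were 0, beside 870 (chow), 2026 (MCD) and 1884 (difference of responses) of all 12466 tested genes. Afp rose by 2.53 in WT and 1.87 in Pctp-/- mice on MCD. Its repressors Zhx2 (-0.90 and -1.13) and Zfhx3 (-0.80 and -0.84) fell in both genotypes. Zbtb20, another repressor of Afp, fell by 0.51 in Pctp-/- mice, a call lost without Pctp-/- chow replicate 2 or 3 or Pctp-/- MCD replicate 3 (limma adjusted p = 0.062 to 0.077). Unlike Meg3 and Rian, Afp was not highest in Pctp-/- mice on MCD, which had 6.26 to 8.47 FPKM against 6.52 to 19.9 in WT mice on MCD.

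Genes that followed Meg3 and Rian were sought by Pearson's r of log2(FPKM + 1) over the 12 libraries, among all tested genes other than the members. For both the closest was Cyp3a41a, a steroid and drug oxidase of the Cyp3a family that is typical of female liver (r = 0.96 with Meg3 and 0.99 with Rian). It was listed at 0 in the 6 chow libraries and was at 4.97, 2.13 and 3.56 FPKM in WT and 20.7, 33.4 and 19.9 in Pctp-/- mice on MCD, with reads that a near-identical copy may share. The others for Meg3 were Appl2 (0.93), mt-Nd2 (0.93), Ppp4r4 (0.92) and Dsg1c (0.92), and for Rian Dsg1c (0.96), Ppp4r4 (0.94), Serpinb8 (0.94) and G530011O06Rik (0.94). Dsg1c, a desmosomal cadherin gene, was at 5.85 to 7.81 FPKM in WT and 10.6 to 11.8 in Pctp-/- mice on MCD, and at 2.69 to 3.47 on chow. These likenesses rest on libraries that share groups and diets and are given as a description.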

How the data were processed

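FPKM of each gene in each of 12 liver libraries of total RNA were deposited by the authors, with a second table in which read totals are whole-number counts and the mapping and quality measures are percent, per the file headers. The submitters' processing notes name the build mm10, and the aligner, counting tool, annotation and strand setting are not given in the sources used here. Symbols and positions came from GENCODE M21 (GRCm38, the same assembly), which held 34490 of 35275 identifiers. FPKM values are not counts, so log2(FPKM + 1) was modelled with limma 3.58.1 in R 4.3.3, using the 4 group means of all 12 libraries and a mean-variance trend, for 12466 genes with a mean of at least 0.5 FPKM. Benjamini-Hochberg adjusted p values cover all tested genes, two-sided, and genes under 0.05 were called. The deposited library columns were used without rescaling, 0 pairs of libraries were identical, and each library is a different mouse by its label. Members and gene lists were chosen with earlier results of these data known. The genes named are the members, rows between Dlk1 and Dio3, list genes called between genotypes, the 4 largest non-overlapping rises and falls with diet, called genes of the methylation and fetal lists, and the 5 most alike. The fit was tested on simulated data. Promoters and microRNAs came from RefSeq. Alternatives were the pseudocount, filter, scaling, libraries fitted, a replicate block, robust moderation and leaving out each library.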

Additional observations from a re-analysis of the deposited data

Results flagged for a closer look

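The response to the MCD diet stood apart between the genotypes for 3 of the genes described, as fitted on all libraries. The difference of the responses, Pctp-/- minus WT, was 1.51 for Meg3 and 1.43 for Rian on the log2(FPKM + 1) scale. Both genes were selected on this comparison, so it is a description with no test of its own. For Ddc the difference was -1.37 by the interaction term of the fit (limma adjusted p = 0.049). The mice on chow and on MCD were different animals. The 3 Pctp-/- mice on MCD lay below the 3 on chow, and the 3 WT mice on MCD above the 3 on chow. For diet in WT mice, Ddc did not pass in 8 other alternatives (limma adjusted p = 0.056 to 0.21). With single libraries left out, that limma adjusted p was 0.048 to 0.27. The call for the difference of responses was lost in 8 of the 12 fits that each left out 1 library. It was also lost in 4 of 7 other alternatives (limma adjusted p up to 0.14), and Ddc was already known to be called in these libraries.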

How the results depend on the processing

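The replicate numbers of the labels name different mice, and the deviations of libraries with the same number correlated in some pairs only (r from -0.10 to 0.22 over 18 pairs, 8 above 0.1), so the numbers were not taken to pair them. As a hint from the data, 9 of 12 libraries correlated best with their own number. With a replicate block, all-gene calls went from 17 to 32 (genotype, chow), 102 to 115 (genotype, MCD), 7110 to 7202 (diet, WT), 6276 to 6430 (diet, Pctp-/-) and 12 to 59 (difference of responses). Under that block Igf2r passed for diet in WT and Pctp-/- mice (limma adjusted p = 0.016 and 0.045). The count of other imprinted genes called between genotypes on chow was 0 in place of 1 with no filter on low values and with only the 6 libraries fitted, and 0 to 1 when single libraries were left out. For the difference of responses it was 0 in place of 1 with a pseudocount of 0.1, no filter, quantile normalisation and median-of-ratios scaling, and 0 to 1 when single libraries were left out. For diet in WT mice it was 13 in place of 20 with a mean of at least 5 FPKM, which tests fewer genes, and 16 to 21 when single libraries were left out. In Pctp-/- mice it was 12 to 18 over all alternatives, and between genotypes on MCD it was 0 in each. The Ddc difference of responses lost its call in 8 of the 12 fits that each left out 1 library (limma adjusted p up to 0.14). The difference of Peg3 with diet in Pctp-/- mice, 0.19, lay between -0.13 and 0.43 when single libraries were left out. Where calls were lost, the cause was not tested. Of the differences of Meg3 and Rian, 0 of 120 estimates with a library left out and 10 of 68 under other alternatives, all 10 with the smaller pseudocount, moved by more than 1 SD. The fit of only 6 libraries gives no difference of responses. At the chow levels of H19 and Mirg, a few fragments set each value.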
